A study of Arabidopsis thaliana and Cardamine hirsuta and Capsella rubella with 102 samples.

Results

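*Capsella rubella* seedlings (accession N22697, whole seedlings, 12 days old) were sampled 9 h after 1 µM flg22 or after mock treatment, and the response of every gene at that time is described here. Members were chosen by label alone: the 3 flg22 and the 3 mock RNA-seq libraries of this species at 9 h, 6 of the 102 libraries in the series, with all genes of their count table. The flg22 group received the peptide in liquid half-strength MS medium 24 h after transfer from agar, and the mock group received no flg22. A replicate is 1 of 3 independent experiments in which flg22 and mock seedlings were handled side by side, and several wells of seedlings were pooled per library. The same species was also harvested at 1 h and 24 h (6 libraries each), and the series holds the same treatments and times for *A. thaliana* Col-0, *E. salsugineum* and *C. hirsuta*. These 3 species at 9 h, with 6 libraries each, and the 1 h and 24 h libraries of *C. rubella* serve below to show where the 9 h response differs.

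flg22 is a peptide from bacterial flagellin, a microbe-associated molecular pattern that plants sense at the cell surface through the receptor kinase FLS2 and its coreceptor BAK1. Binding starts pattern-triggered immunity (PTI): an oxidative burst made by the NADPH oxidase RBOHD, calcium and MAP kinase signaling, and within the hour a transcriptional wave carried largely by WRKY and ERF factors. Later outputs include the phytohormones ethylene, jasmonate and salicylic acid (SA), tryptophan-derived indole glucosinolates and camalexin, cell wall reinforcement by peroxidases and phenylpropanoids, and reduced growth. The roles given below are those known from *A. thaliana*. *C. rubella* genes carry the symbol of their *A. thaliana* ortholog where the study's supplemental lists pair them, and otherwise their Carubv identifier. No C. rubella sequence or position was analysed here.

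The C. rubella libraries held 20955880 to 31507853 reads counted on genes, and those at 9 h 25338362 to 28944647, a depth at which 19750 of 26521 genes passed a mean of 10 counts over the 18 C. rubella libraries. Levels are given as CPM, gene counts scaled to a common library size with TMM normalization factors. The mock library of replicate 1 at 9 h stood apart. Its correlation with the other mock libraries at 9 h was 0.940 and 0.956, against 0.983 between those other mocks. Alignments to several places made up 16.7% of all its counts, those not assigned to a gene included, against 10.3 to 13.9% in the other 9 h libraries. A read with several alignments may enter this share more than once. Its deviation from its group moved with gene length, taken from the A. thaliana ortholog. The Spearman rho was -0.43 across the 1499 tested orthologs listed from the start of chromosome 1 (genes are not independent replicates). In replicate pair 1 the median log2 ratio of flg22 over mock was -0.46 in the shortest of 4 length classes and 0.66 in the longest. The flg22 library of the same replicate deviated the other way, with a rho of 0.31 and medians of -0.14 and 0.18 in those classes, so the trend of pair 1 holds the deviations of both its libraries. The corresponding medians of the ratio were -0.03 and 0.05 in pair 2 and 0.06 and -0.06 in pair 3. The part of this library in each result was measured by leaving it out, an alternative chosen after the data were seen.

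**Figure D1:**
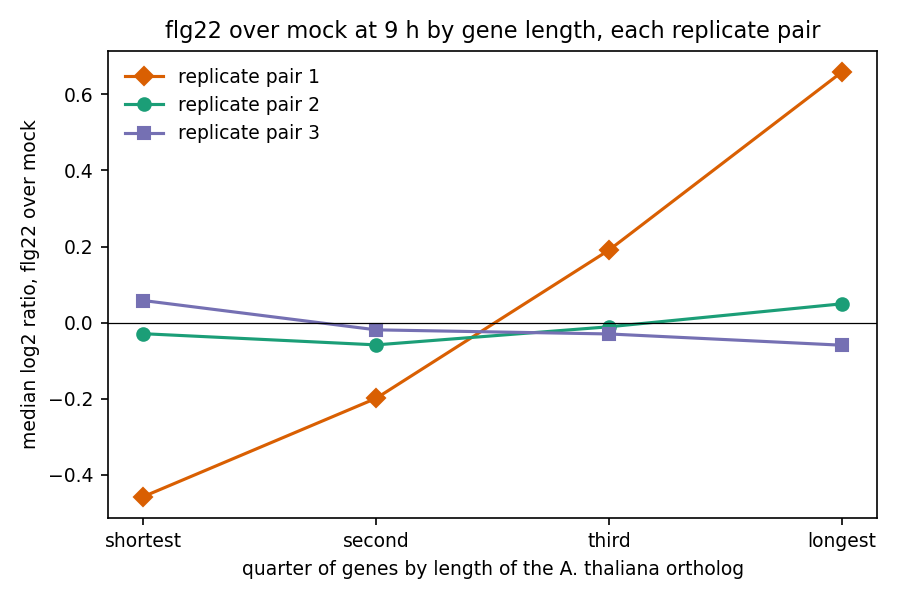
Median log2 ratio of flg22 over mock at 9 h (y axis) in 4 classes of similar size by the length of the A. thaliana ortholog (x axis, shortest to longest). The genes are the 1499 tested orthologs from the start of chromosome 1, with a line for each replicate pair. Pair 1 runs from -0.46 to 0.66, while pairs 2 and 3 stay between -0.06 and 0.06.

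To ask which genes flg22 had changed by 9 h, the libraries of all 3 times were fitted together with the replicate as a block, and differentially expressed genes (DEGs) were taken at an adjusted p-value below 0.01 and a change of more than 1 on the log2 scale. At 9 h, 449 of 19750 genes were DEGs (2.27%), of which 325 rose (1.65% of tested genes) and 124 fell (0.628%). The risen genes changed by 1.00 to 6.86 on the log2 scale with a median of 1.91, and 146 of them changed more than 4-fold. The fallen genes had a median of -1.47 with a lowest value of -5.15, and 28 of them changed more than 4-fold. All 325 and all 124 had the same direction in the 3 replicate pairs, and the flg22 and mock values did not overlap for 324 risen and 122 fallen genes, where 11.3% of all tested genes were higher and 11.6% lower without overlap.

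The count depended strongly on single libraries. The called genes were chosen on these same libraries and had the same direction in all 3 pairs. That they kept their sign below is therefore no independent evidence. Without mock replicate 1 at 9 h, 189 genes rose (0.957%) and 51 fell (0.258%), of which 150 and 43 were among the 325 and 124. Every one of the 325 and 124 kept its sign there, with medians of 1.85 and -1.30. The risen genes had medians of 1.88, 1.94 and 1.87 in pairs 1, 2 and 3, while the fallen genes had -2.0, -1.41 and -1.13, the largest fall being in the pair with the mock library that stands apart. Leaving out replicate 2 at all times left 1 risen and 0 fallen genes past the thresholds in edgeR, with 324 of 324 risen and 124 of 124 fallen genes tested there still of the same sign. All of these 324 and 124 genes had an unadjusted p below 0.05 in that fit, as had 2840 genes in all. The choice of these genes had used the libraries kept there. Leaving out replicate 2 at 9 h only gave 20 risen and 14 fallen genes.

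**Figure D2:**
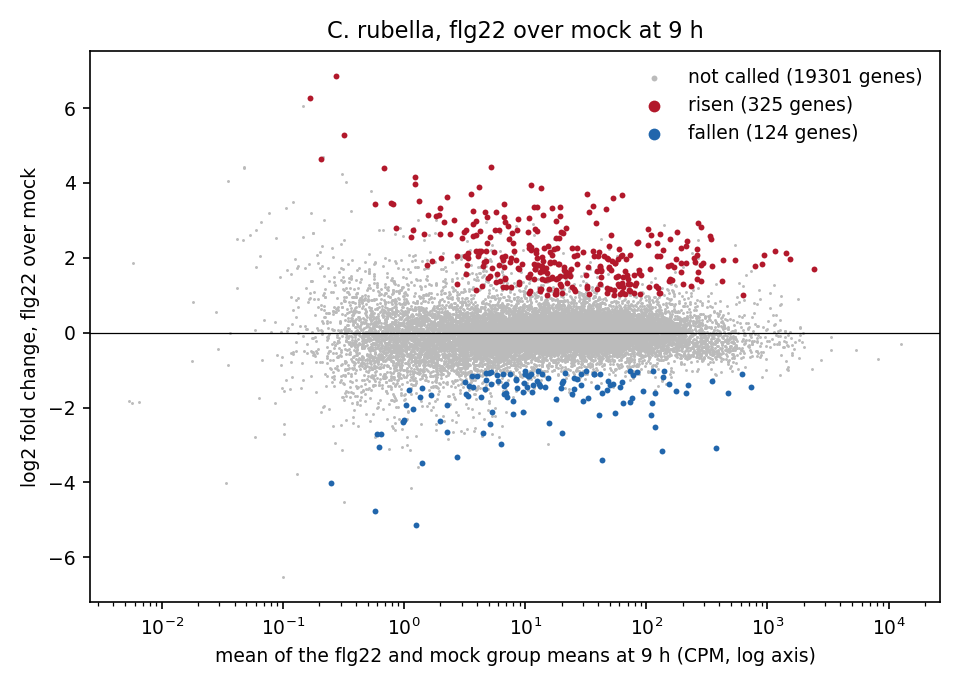
Log2 fold change of flg22 over mock at 9 h (y axis) against the mean of the flg22 and mock group means in CPM (x axis, log scale), 1 point per tested gene. The 325 risen genes (red) reach 6.86 and the 124 fallen genes (blue) reach -5.15, and most genes lie near 0.

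Named orthologs were unevenly spread over the response. Among 4204 tested genes with a listed ortholog, 189 rose (4.5%) and 10 fell (0.238%), and among 15546 with none listed, 136 rose (0.875%) and 114 fell (0.733%). The study chose part of those lists by the response of these same plants, largely at 1 h, so the higher share of risen genes is no independent evidence. In the 1499 orthologs listed by position at the start of chromosome 1, not by response, 14 rose (0.934%) and 5 fell (0.334%). Of the 124 fallen genes, 114 thus have no name here.

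The 12 named orthologs that rose most were led by signaling and defense genes, and all of them were also DEGs without mock replicate 1. RHA1B, a RING-H2 finger protein, had 7.85, 17.4 and 4.59 CPM in flg22 libraries, against 0.543, 0.515 and 0.258 CPM in mock libraries, a log2 fold change of 4.44 (SE 0.52, adjusted p = 0.000314). NHL10, an NDR1/HIN1-like gene widely used as a flg22 marker, had 9.60, 42.9 and 11.1 CPM in flg22 libraries, against 0.775, 1.96 and 0.935 CPM in mock libraries (3.94, SE 0.47). For PER4, a class III peroxidase, the values were 85.3, 137 and 124 CPM in flg22 libraries, against 1.63, 18.6 and 10.8 CPM in mock libraries (3.67, SE 0.47). In each of these genes the lowest flg22 library lay above the highest mock library, and the flg22 library of replicate 2 was the highest. AT3G22060, a receptor-like kinase-related gene, had 48.1, 72.2 and 62.1 CPM in flg22 libraries, against 4.50, 8.63 and 6.58 CPM in mock libraries, with the smallest adjusted p-value of the 12 (3.21, SE 0.32, adjusted p = 0.000135). The other 8 were the tyrosine transaminase family gene AT4G28420 (3.72), AT1G36622 of unknown function (3.60), the phloem protein gene PP2-B14 (3.37), the RNase-like RTL1 (3.35), the NAC factor AT3G12910 (3.34), the cytochrome P450 CYP79B2 (3.3), the apoplastic peroxidase PRX34 (3.25) and the MYB factor MYB51 (3.21). Of the genes with no listed ortholog, Carubv10008827 (3.88) and Carubv10020848 (3.87) rose most. Carubv10020848 had 15.0, 40.8 and 20.4 CPM in flg22 libraries, against 0.659, 2.37 and 1.90 CPM in mock libraries.

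Very few named genes fell, and the falls were smaller. AT1G09310, of unknown function, had 19.3, 31.2 and 31.5 CPM in flg22 libraries, against 150, 84.4 and 66.2 CPM in mock libraries (-1.88, SE 0.28, adjusted p = 0.00121). AT5G03120, also uncharacterized, had 2.04, 2.11 and 1.78 CPM in flg22 libraries, against 5.43, 6.08 and 4.77 CPM in mock libraries (-1.46, SE 0.24). The leucine-rich repeat kinase AT5G59670 had 11.3, 6.07 and 6.80 CPM in flg22 libraries, against 21.6, 24.4 and 17.2 CPM in mock libraries (-1.46, SE 0.24). These 3 genes, whose groups did not overlap, and the cytochrome P450 CYP77B1 (-1.11) were also DEGs without mock replicate 1. The calls of the other 5 of the 9 that met the naming rule were lost without that library: ACO4, an ethylene-forming enzyme, JAZ9, a repressor of jasmonate signaling, PPCK1, a kinase of phosphoenolpyruvate carboxylase, HTR12, the centromeric histone, and AT1G61415. ACO4 had 100, 87.7 and 79.7 CPM in flg22 libraries, against 294, 150 and 124 CPM in mock libraries (-1.01, SE 0.20, adjusted p = 0.00674), and its change without mock replicate 1 was -0.75 (adjusted p = 0.0263). Carubv10008452, with no listed ortholog, fell most of all genes with at least 10 counts in both groups on average: 7.26, 11.2 and 3.92 CPM in flg22 libraries, against 113, 81.2 and 42.9 CPM in mock libraries (-3.41, SE 0.33, adjusted p = 0.000119). Its replicates did not overlap, and it fell by 3.07 on the log2 scale without mock replicate 1.

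**Figure D3:**
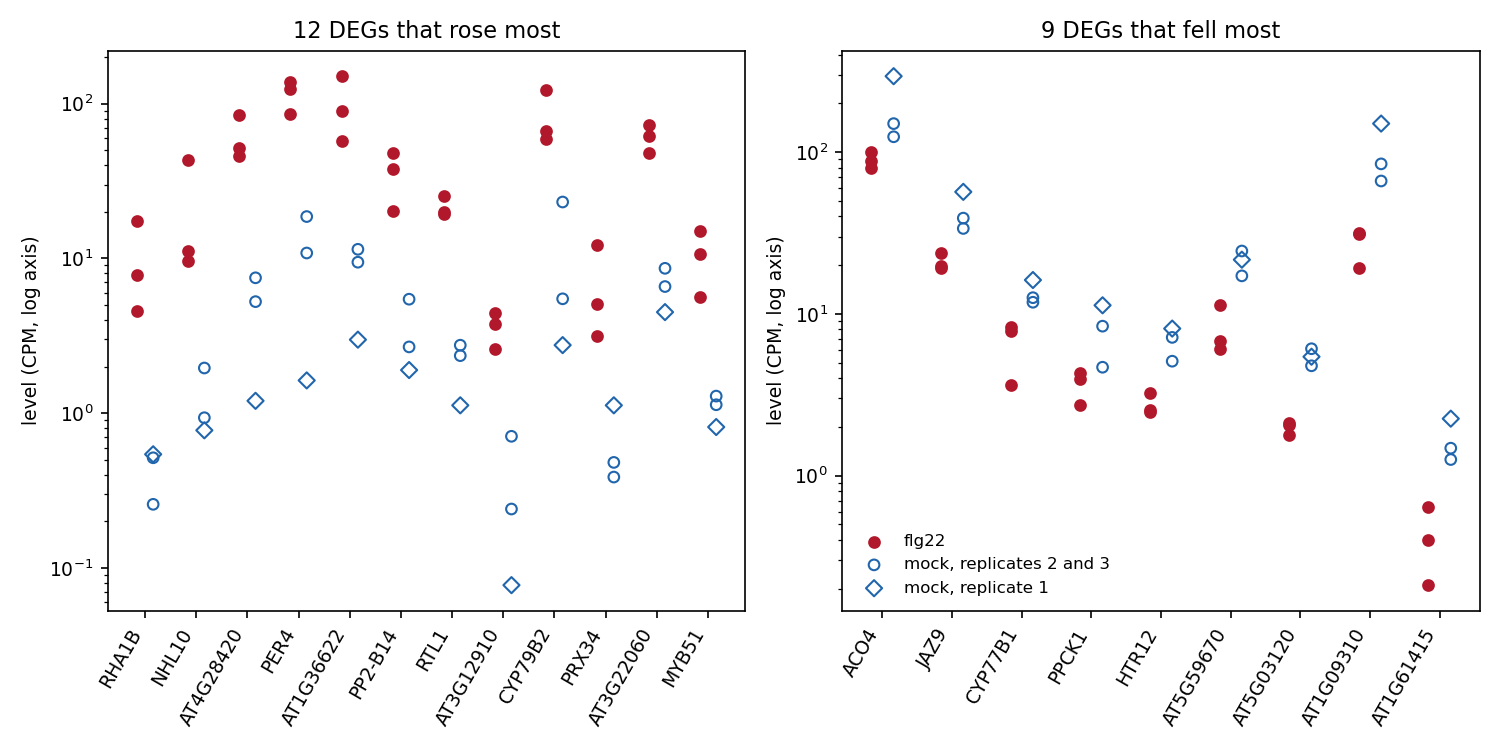
Level in each 9 h library (CPM, log axis) of the 12 named orthologs that rose most (left) and the 9 that fell most (right), with flg22 as filled red circles to the left of mock as open blue symbols and mock replicate 1 as diamonds. For PER4, mock replicate 1 lies lowest at 1.63 CPM, and for ACO4 it lies highest at 294 CPM.

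To see which branches of immunity these genes belong to, 24 lists of 541 A. thaliana genes were followed, of which 244 have a listed C. rubella ortholog. Each list below is therefore partial, and its members come from ortholog lists enriched for flg22-responsive genes. Beside each count stand the 1.65% risen among all tested genes, whose median at 9 h was -0.00119, and the 4.5% risen among listed orthologs, whose median was 0.11.

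The class III peroxidases, which make and use hydrogen peroxide in the cell wall, had the highest median of the lists. Of 8 tested, 6 rose and none fell, with a median of 2.34, and 5 rose without mock replicate 1. PRX52, linked to lignin formation, had 206, 442 and 153 CPM in flg22 libraries, against 32.8, 65.7 and 37.6 CPM in mock libraries (2.50, SE 0.38). PRX37 had 158, 260 and 126 CPM in flg22 libraries, against 32.3, 29.5 and 17.2 CPM in mock libraries (2.78, SE 0.38). PRX34, required for the apoplastic oxidative burst, was at 5.07, 12.2 and 3.13 CPM in flg22 libraries, against 1.12, 0.481 and 0.387 CPM in mock libraries (3.25, SE 0.49). The groups of these 3 genes did not overlap. The members that did not pass were PER53 (0.66, adjusted p = 0.469) and PER69 (0.22, adjusted p = 0.786), and PRX71 (2.18) was the member whose call was lost without mock replicate 1. RBOHD, the oxidase that produces the burst itself, also rose, with 65.9, 75.4 and 83.6 CPM in flg22 libraries, against 16.4, 26.9 and 25.1 CPM in mock libraries (1.72, SE 0.25, adjusted p = 0.000912).

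The tryptophan, indole glucosinolate and camalexin list had 9 of 18 tested members risen and none fallen, with a median of 1.21, and 9 also rose without mock replicate 1. The risen members run from tryptophan synthesis to its first conversion. ASB1, PAT1, IGPS and TSA1 act in tryptophan synthesis, CYP79B2 and CYP79B3 turn tryptophan into indole-3-acetaldoxime, MYB51 and MYB122 regulate indole glucosinolates, and PEN3 is a plasma membrane transporter for their products. TSA1 had 385, 662 and 241 CPM in flg22 libraries, against 99.8, 110 and 81.0 CPM in mock libraries (2.07, SE 0.23, adjusted p = 0.000241). CYP79B2 had 66.6, 122 and 59.0 CPM in flg22 libraries, against 2.75, 23.1 and 5.48 CPM in mock libraries (3.3, SE 0.42). For MYB51 the values were 5.62, 15.0 and 10.7 CPM in flg22 libraries, against 0.814, 1.13 and 1.29 CPM in mock libraries (SE 0.49). None of these groups overlapped. The later steps of glucosinolate synthesis did not pass: SUR1 (0.50), GGP1 (0.45), UGT74B1 (-0.29) and the sulfotransferase SOT16 (1.19, adjusted p = 0.219). Nor did the 3 tested APS kinases, with APK4 at 0.06 (SE 0.14). In tryptophan synthesis, 2 members did not pass. TSB1 (0.82, adjusted p = 0.00808) missed the limit on fold only. ASA1 (0.84, adjusted p = 0.0203) missed both limits and was at 0.63 without mock replicate 1.

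Of 26 WRKY transcription factors tested, 10 rose and none fell, with a median of 1.51. WRKY6, WRKY11, WRKY29, WRKY31 and WRKY72 also rose without mock replicate 1, where WRKY75 was the sixth. WRKY29, a classical flg22 marker, had 32.1, 39.4 and 38.5 CPM in flg22 libraries, against 12.6, 12.3 and 9.22 CPM in mock libraries (1.70, SE 0.24, adjusted p = 0.000905). WRKY11 had 93.4, 99.4 and 108 CPM in flg22 libraries, against 27.6, 35.6 and 34.0 CPM in mock libraries (1.64, SE 0.26). These libraries did not overlap. WRKY33, a regulator of camalexin synthesis, did not pass at 165, 232 and 229 CPM in flg22 libraries, against 125, 70.0 and 86.3 CPM in mock libraries (1.15, SE 0.29, adjusted p = 0.023), nor did WRKY40 (0.76), WRKY18 (0.37) or WRKY46 (0.26).

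Most tested receptor and early signaling genes were not DEGs at 9 h. Of 15 pattern recognition receptors and coreceptors, 2 rose (median 0.44): IOS1, a leucine-rich repeat kinase (2.35, SE 0.42), and LORE (1.03, SE 0.19), and neither passed without mock replicate 1, with values of 2.11 and 0.95. FLS2, the flg22 receptor itself, had 74.7, 40.7 and 54.4 CPM in flg22 libraries, against 55.7, 62.5 and 80.9 CPM in mock libraries (-0.26, SE 0.19, adjusted p = 0.43), and its groups overlapped. BAK1 differed by 0.72 (SE 0.14, adjusted p = 0.00523), under the fold limit. Of 21 early PTI signaling genes, RBOHD and the U-box ubiquitin ligases PUB22 (2.06, SE 0.30) and PUB23 (1.5, SE 0.29) rose, and the median was 0.34. The call of PUB23 was lost without mock replicate 1 (1.40, adjusted p = 0.0265). The MAP kinase kinase gene MKK1, at 57.8, 54.7 and 48.9 CPM in flg22 libraries, against 122, 90.3 and 88.8 CPM in mock libraries, missed the threshold (-0.89, SE 0.19, adjusted p = 0.0102). Of 8 cysteine-rich receptor-like kinases 0 passed in edgeR, DESeq2 or limma-voom, with a median of 0.62. At an unadjusted p below 0.05 in edgeR there were 4, of which 1, CRK10 (-0.71), was lower. That level was passed by 4612 of all 19750 tested genes. Of 6 calmodulin-like genes, CML38 rose (1.48, SE 0.28), with 1.36 without mock replicate 1 (adjusted p = 0.0191).

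Among hormone lists, ethylene had 3 of 17 members risen and 1 fallen, with a median of 0.81. ACS7, an enzyme that makes the ethylene precursor, had 18.9, 32.7 and 32.8 CPM in flg22 libraries, against 2.60, 11.5 and 5.97 CPM in mock libraries (2.24, SE 0.47, adjusted p = 0.00898), and the factors ERF5 (1.93, SE 0.36) and ERF6 (2.01, SE 0.41) rose with it. ACO4, which catalyzes the final step from that precursor, was the fallen member. None of these 4 passed without mock replicate 1, where ACS7 was at 1.91, ERF5 at 2.0, ERF6 at 2.18 and ACO4 at -0.75, and the ACS2 gene was the only member past the thresholds. Jasmonate had LOX4, a lipoxygenase of jasmonate synthesis, risen (1.83, SE 0.32) and JAZ9 fallen (-1.02, SE 0.22) of 17 (median -0.17). Neither passed without mock replicate 1, at 1.59 (adjusted p = 0.0169) for LOX4 and -0.79 (adjusted p = 0.0452) for JAZ9. AOS, a committed enzyme of jasmonate synthesis, did not pass at 77.2, 83.3 and 69.0 CPM in flg22 libraries, against 163, 155 and 120 CPM in mock libraries (-0.93, SE 0.23, adjusted p = 0.0227), although the groups did not overlap. Of 7 auxin and 5 abscisic acid genes 0 passed in edgeR, DESeq2 or limma-voom. An unadjusted p below 0.05 in edgeR was found for 1 and 0 of them, and for 4612 of all 19750 tested genes.

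No gene of the 13 tested in the SA and pipecolic acid list was a DEG at 9 h, and the median was -0.07. Their summed level was 231 to 255 CPM in flg22 libraries, against 183 to 439 CPM in mock libraries. Here the mock library of replicate 1 decided several values. SARD1, a master regulator of SA synthesis, had 1.17, 2.81 and 1.39 CPM in flg22 libraries, against 12.7, 3.16 and 1.48 CPM in mock libraries (-1.65, SE 0.76, adjusted p = 0.203), and its change without mock replicate 1 was -0.25. NIMIN1, induced by SA and an interactor of its receptor NPR1, had 0.912, 1.12 and 2.1 CPM in flg22 libraries, against 24.0, 2.78 and 1.16 CPM in mock libraries (-2.21, SE 0.80, adjusted p = 0.11), and -0.37 without mock replicate 1. The SARD1 homolog CBP60G had 39.8, 42.3 and 42.3 CPM in flg22 libraries, against 43.9, 20.4 and 16.1 CPM in mock libraries (0.71, SE 0.35, adjusted p = 0.238), and 1.22 without mock replicate 1 (adjusted p = 0.0524). The list median without that library was 0.12, with 0 DEGs. At an unadjusted p below 0.05 in edgeR there were 5 of the 13, 4 of them lower, where 4612 of all 19750 tested genes passed that level. DESeq2 and limma-voom each called 0 of the 13.

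Output genes were mixed. Of 15 defense outputs, NHL10 and MLO12, a membrane protein of the powdery mildew susceptibility family (2.45, SE 0.43), rose, with a median of 0.57, and the call of MLO12 was lost without mock replicate 1 (2.11, adjusted p = 0.0171). PROPEP3, precursor of an immune-amplifying peptide, had 8.76, 13.7 and 38.3 CPM in flg22 libraries, against 0.582, 0.447 and 8.13 CPM in mock libraries (2.91, SE 0.71, adjusted p = 0.0206). Its groups did not overlap, yet replicate 3 was far above the others under both treatments. PR4, a pathogenesis-related chitin-binding protein, had 473, 644 and 485 CPM in flg22 libraries, against 262, 147 and 233 CPM in mock libraries (1.31, SE 0.29, adjusted p = 0.0121). Of 13 phenylpropanoid and lignin genes, the regulator MYB15 (2.18, SE 0.36) and the reductase CCR2 (2.21, SE 0.42) rose (median 0.72), and neither passed without mock replicate 1, at 2.02 and 2.31. Of 9 glutathione transferases, GSTU11 rose, with 8, 11 and 9 counts in flg22 libraries and 0 in every mock library. Against a floor of 3 counts per library this is at least 3.16-fold higher, and the call was lost without mock replicate 1 (adjusted p = 0.0236). The cell wall invertase gene CWINV1 (1.63, SE 0.31) was the only DEG of 6 sugar transport genes, and AZF2 (1.22, SE 0.24) and ZAT11 (2.16, SE 0.43) of 12 ZAT, NAC and MYB factors. Without mock replicate 1, CWINV1 (1.63, adjusted p = 0.02) and ZAT11 (1.95, adjusted p = 0.0303) did not pass, and AZF2 did. NAC32 differed by 0.46 (SE 0.23), RAC7 by -0.62 (SE 0.30) and PBS3, which conjugates isochorismate in SA synthesis, by 0.73 (SE 0.29), none of them past the threshold.

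Of the photosynthesis, cell cycle and wall growth lists 0 genes were DEGs in the edgeR fit of the 18 C. rubella libraries. All 4 tested photosynthesis genes and all 5 tested cell cycle genes had values below 0, with medians of -0.75 and -0.81, and the closest to the threshold were the cell division kinase gene CDKB2;2 (-1.12, SE 0.25, adjusted p = 0.0124) and the cytokinesis syntaxin KN (-1.10, SE 0.26, adjusted p = 0.0193). Photosynthesis genes summed to 1869 to 2133 CPM in flg22 libraries, against 3080 to 3603 CPM in mock libraries, and cell cycle genes to 30.7 to 43.4 CPM in flg22 libraries, against 55.01 to 76.5 CPM in mock libraries. In both lists the groups did not overlap. At an unadjusted p below 0.05 in edgeR there were 4 of 4 photosynthesis and 3 of 5 cell cycle genes. Of all 19750 tested genes, 4612 passed that level. DESeq2 called 2 cell cycle genes lower and 0 photosynthesis genes, where it called 290 of all 19750 genes lower. The edgeR fit across species described below, which has no replicate block, also called 2 of the 5 cell cycle genes lower in C. rubella. Of all 3812 orthologs in that fit, 22 were called lower (0.577%).

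The 3 tested root markers, WOX5, LRX1 and EXPA7, summed to 1.14 to 2.35 CPM in flg22 libraries, against 2.48 to 4.65 CPM in mock libraries, none of them a DEG. They did not move together: LRX1 (-1.43) and EXPA7 (-0.86) were lower and WOX5 (1.17) was higher. LRX1, with group means of 0.94 CPM in flg22 and 2.51 CPM in mock libraries, held the largest part of the sum. Their median was -0.86, and -0.30 without mock replicate 1. Seedlings were ground whole, so fewer cells of a type and less RNA per cell cannot be told apart, and the part of organ or cell type shares in the results was not tested. Of 3 wall growth and 3 circadian clock genes none passed (medians -0.67 each), nor did the iron gene FRO2 (-0.61) or any of 6 ER chaperone genes (median 0.01).

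**Figure D4:**
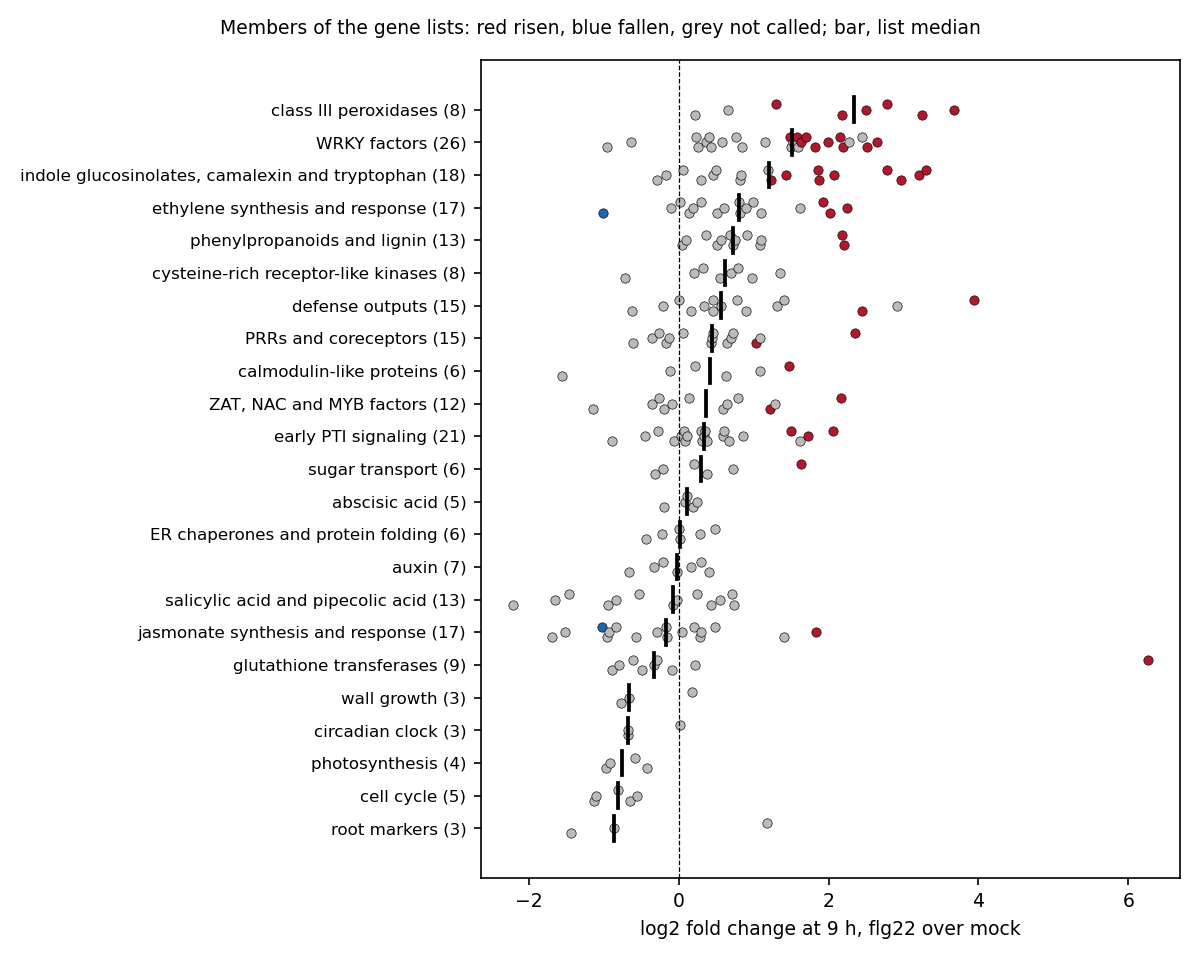
Log2 fold change at 9 h (x axis) of each tested member of 23 gene lists (y axis, number of tested members in parentheses), with risen genes in red, fallen genes in blue, others in grey and the list median as a black bar. Class III peroxidases have the highest median, 2.34, and the 4 photosynthesis and 5 cell cycle genes all lie below 0.

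Of the 3 times, 9 h had the fewest DEGs. The same thresholds gave 2723 risen (13.8%) and 1214 fallen genes (6.15%) at 1 h, and 1247 risen (6.31%) and 265 fallen genes (1.34%) at 24 h. Of the 325 genes risen at 9 h, 271 had also risen at 1 h (83.4% of the 9 h list and 9.95% of the 1 h list) and 297 rose at 24 h (91.4% of the 9 h list and 23.8% of the 24 h list). Of the fallen genes, 31 of 124 had fallen at 1 h (25.0% of the 9 h list and 2.55% of the 1 h list) and 56 fell at 24 h (45.2% of the 9 h list and 21.1% of the 24 h list). Called at 9 h and at neither other time were 20 risen and 55 fallen genes, which does not show that their effect differed between times. The risen genes, chosen on their 9 h values, had a median log2 fold change of 3.74 at 1 h, 1.91 at 9 h and 2.58 at 24 h, where all tested genes had medians of -0.09, -0.00119 and -0.06. For the fallen genes the medians were -0.51 at 1 h, -1.47 at 9 h and -1.07 at 24 h.

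**Figure D5:**
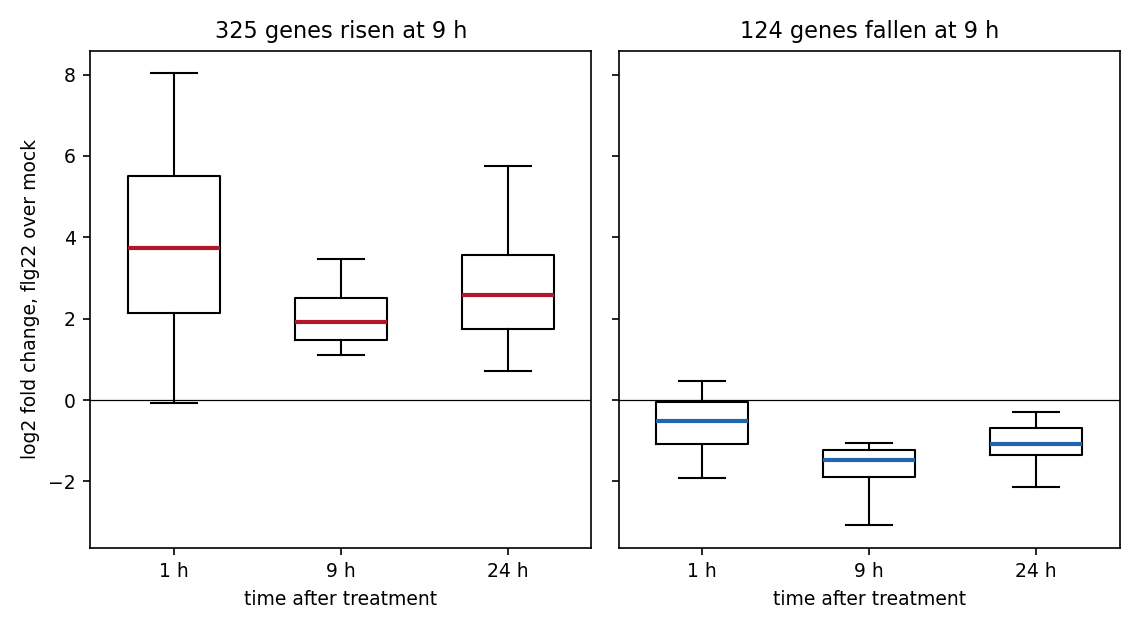
Log2 fold change of flg22 over mock at 1, 9 and 24 h for the 325 genes risen (left) and the 124 fallen (right) at 9 h, with boxes from the lower to the upper quartile, colored lines at the median and whiskers at the 5th and 95th percentiles. The medians of the risen genes are 3.74, 1.91 and 2.58, and those of the fallen genes -0.51, -1.47 and -1.07.

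The difference between times was tested directly as an interaction of treatment and time. The effect was lower at 9 h than at 1 h for 2024 genes (10.2%) and higher for 794 (4.02%). Against 24 h it was lower for 21 genes (0.106%) and higher for 3 (0.0152%), so for most genes not called at 9 h but called at 24 h a difference between these times was not detected. Of the 325 risen genes, 153 had a lower and 20 a higher effect at 9 h than at 1 h, and 0 had a lower and 2 a higher effect than at 24 h. These tests share the 9 h libraries with the choice of the genes, so the counts are a description. Among named orthologs, the smallest p-value against 1 h was that of AT3G52520, of unknown function, with 7.30, 9.02 and 11.7 CPM in flg22 libraries at 9 h, against 6.82, 6.63 and 7.80 CPM in mock libraries. At 1 h it had 136, 125 and 181 CPM in flg22 libraries, against 1.79, 1.07 and 1.97 CPM in mock libraries, a difference in effect of -6.13 (SE 0.28, adjusted p = 7.2e-09). The lectin receptor-like kinase gene AT3G53810 was lower as well (-3.59, SE 0.19, adjusted p = 2.11e-08). Of 26 WRKY genes 23 rose at 1 h, 10 at 9 h and 22 at 24 h, and 16 were lower at 9 h than at 1 h and 1 lower than at 24 h by the interaction. Of 8 cysteine-rich receptor-like kinase genes 8 rose at 1 h, 0 at 9 h and 7 at 24 h. By the interaction 8 were lower at 9 h than at 1 h and 0 lower than at 24 h. Both families come from ortholog lists chosen in part by response, largely at 1 h. Of all 4204 tested genes with a listed ortholog, 1709 rose at 1 h, 189 at 9 h and 724 at 24 h. Of these 4204 genes, 1250 were lower at 9 h than at 1 h and 12 lower than at 24 h.

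A group of genes responded at 1 h and again at 24 h. Of 1074 genes risen at both of those times, 806 were not DEGs at 9 h, and for 17 the effect at 9 h was lower than at 1 h and at 24 h by both interaction tests, which share the 9 h libraries, 12 of them with a listed ortholog. AT1G03220, an aspartyl protease family gene, had 279, 190 and 251 CPM in flg22 libraries at 9 h, against 232, 158 and 179 CPM in mock libraries. At 24 h it had 410, 331 and 338 CPM in flg22 libraries, against 72.0, 63.0 and 82.4 CPM in mock libraries, so that the 9 h effect minus the 24 h effect was -1.98 (SE 0.24, adjusted p = 0.00205). The 9 h effect minus the 1 h effect was -4.59 (SE 0.25, adjusted p = 2.11e-08). The mock libraries themselves were higher at 9 h than at 24 h. The blue copper-binding protein gene BCB shows this most clearly. Its flg22 libraries had 1284, 1205 and 1239 CPM at 9 h and 1117, 1159 and 762 CPM at 24 h, while its mock libraries had 1367, 886 and 958 CPM at 9 h and 140, 145 and 104 CPM at 24 h (difference in effect -2.74, SE 0.31, adjusted p = 0.0017). For the phosphoglycerate mutase family gene AT1G08940 the flg22 libraries had 17.8, 19.9 and 16.99 CPM and the mock libraries 13.8, 16.05 and 13.6 CPM at 9 h. At 24 h its flg22 libraries had 39.5, 29.0 and 21.9 CPM and its mock libraries 6.63, 5.03 and 5.17 CPM (-2.08, SE 0.24, adjusted p = 0.0017). WRKY15 and EXO70B2, an exocyst subunit gene, were among the 17, with 9 h values of 0.40 and -0.19 that did not pass.

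Mock levels of these genes at 9 h differed from those at the other times. Over the 17 genes, mock levels at 9 h were higher than at 24 h by a median of 1.90 on the log2 scale, while flg22 levels differed by a median of -0.58, values that the choice of these genes fixes in part. Over the 1074 genes risen at 1 h and 24 h, median mock levels at 9 h were 0.81 above those at 1 h and 0.67 above those at 24 h (0.62 and 0.53 without mock replicate 1), and 856 of 1074 were higher than at 24 h. The 1074 genes were chosen on flg22 over mock at 1 h and 24 h, which favors low mock values there, so their choice also fixes these medians in part. All tested genes had medians of -0.00472 and 0.00543, but TMM scaling holds the median of all genes near 0. These values are therefore no independent comparison. Over the 26 WRKY genes the mock medians were 1.21 above 1 h and 0.60 above 24 h, with flg22 levels -2.03 and -0.22 relative to the same times. Over the 8 class III peroxidases the mock medians were 1.71 and 0.72 higher, and those of flg22 were 0.78 and 0.08 higher. Time after treatment and the hour of harvest cannot be told apart in this design.

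Some genes had a higher effect at 9 h than at 1 h. PER50, a class III peroxidase, had 102, 118 and 82.3 CPM in flg22 libraries at 9 h, against 31.3, 50.5 and 41.3 CPM in mock libraries (1.3, SE 0.18). At 1 h it had 27.1, 26.4 and 19.8 CPM in flg22 libraries, against 22.2, 37.6 and 31.7 CPM in mock libraries, and the 9 h effect was higher by 1.61 (SE 0.25, adjusted p = 0.000169). PER50 was 1 of 20 risen genes with a higher effect at 9 h than at 1 h, of which 3 have a listed ortholog, the others being the TIR-NBS-LRR resistance gene AT4G19530 (2.05) and PES2 (1.57), an esterase gene whose call at 9 h was lost without mock replicate 1 (adjusted p = 0.0205). AT2G34810, a berberine bridge enzyme-like gene, was called at 9 h and not at 1 h or 24 h, with 10.5, 12.7 and 7.51 CPM in flg22 libraries, against 3.22, 3.54 and 2.32 CPM in mock libraries (1.76, SE 0.26, adjusted p = 0.00102). Its values at 1 h and 24 h, 0.49 and 0.69, did not pass, and neither did the differences of the 9 h effect from them (adjusted p = 0.0163 and 0.16). Carubv10006911 had 2.96, 5.75 and 2.67 CPM in flg22 libraries, against 0.543, 0.275 and 0.709 CPM in mock libraries (2.97), and was 1 of 5 genes that rose at 9 h after falling at 1 h (-1.67), although its call at 9 h was lost without mock replicate 1 (adjusted p = 0.013). In the opposite sense ACO4 had risen at 1 h (1.61) and fell at 9 h, as did Carubv10001343 (3.49 at 1 h and -1.86 at 9 h) and Carubv10006279. AT4G19530, PES2, Carubv10006911, Carubv10001343, Carubv10006279 and EXO70B2 were named after their values were seen.

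To place the 9 h response among the species, 3812 listed orthologs present in all 4 tables were fitted together in 24 libraries at 9 h. The study chose part of these orthologs by their response in these plants, and 840 are on its list of DEGs shared by all 4 species. Overlap of risen genes between species is therefore partly built into the set. The tables were counted on separate genomes, so only the changes within each species are compared, not the levels. The flg22 effect in C. rubella was higher than in Col-0 for 37 orthologs (0.971%) and lower for 111 (2.91%). Against C. hirsuta it was higher for 20 (0.525%) and lower for 59 (1.55%), and against E. salsugineum higher for 7 (0.184%) and lower for 8 (0.21%). With the replicate number as a block the counts were 68 higher and 191 lower than Col-0, 63 and 126 for C. hirsuta, and 34 and 33 for E. salsugineum. Of the 177 orthologs risen in C. rubella that entered this fit, 143 rose in Col-0 (80.8%, where 15.2% of all 3812 rose), 115 in C. hirsuta (65%, of 11.9%) and 86 in E. salsugineum (48.6%, of 6.9%). Their median changes were 1.87 in C. rubella, 2.20 in Col-0, 1.3 in E. salsugineum and 1.42 in C. hirsuta. The tests of the difference, which share the C. rubella libraries with the choice of these genes, called few of them: 10 were higher and 12 lower in C. rubella than in Col-0, 9 and 3 against C. hirsuta, and 7 and 0 against E. salsugineum. Of the 8 fallen orthologs in the fit, 3 fell in Col-0 (37.5%, where 3.12% of all 3812 fell), 3 in C. hirsuta (37.5%, of 2.33%) and 0 in E. salsugineum (of 0.131%), and 1 rose in C. hirsuta.

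The 3 comparisons share the C. rubella libraries, and genes are named by the smallest p-values in each. RHA1B was the only one of the 3 for Col-0 with a higher effect in C. rubella. Its Col-0 values were 37.7, 42.9 and 33.0 CPM in flg22 libraries, against 31.3, 29.5 and 25.1 CPM in mock libraries, and the C. rubella effect was higher by 4.104 (SE 0.51, adjusted p = 8.1e-05). It was also higher by 3.29 than in C. hirsuta, where RHA1B rose by 1.22 (adjusted p = 0.00372), and by 3.92 than in E. salsugineum. In Col-0 (0.40) and E. salsugineum (0.59) RHA1B did not pass. AT4G16563, an aspartyl protease family gene called in C. rubella at 9 h and not at 1 h or 24 h, had 23.1, 36.1 and 38.3 CPM in flg22 libraries, against 5.20, 16.5 and 11.0 CPM in mock libraries. Its 9 h effect was not past the threshold against those at 1 h (adjusted p = 0.0165) and 24 h (adjusted p = 0.178), and its call at 9 h was lost without mock replicate 1 (1.3, adjusted p = 0.0249). In C. hirsuta it had 6.80, 6.35 and 7.50 CPM in flg22 libraries, against 21.2, 49.2 and 28.4 CPM in mock libraries, a difference of 3.83 (SE 0.48, adjusted p = 8.77e-05). AT2G34810 had a higher effect than in E. salsugineum, where it had 7.53, 8.08 and 9.11 CPM in flg22 libraries, against 15.1, 16.9 and 12.1 CPM in mock libraries (2.60, SE 0.31, adjusted p = 6.34e-05). In these 3 genes the C. rubella groups did not overlap.

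The other genes so named had a lower effect in C. rubella. The acyltransferase family gene AT5G42830 had 15.4, 19.4 and 18.8 CPM in C. rubella flg22 libraries, against 15.0, 17.3 and 12.8 CPM in mock libraries. In Col-0 it had 66.9, 69.7 and 65.8 CPM in flg22 libraries, against 5.13, 4.61 and 2.68 CPM in mock libraries, a difference in effect of -3.77 (SE 0.27, adjusted p = 1.6e-08). The kinase gene AT1G66880 likewise differed from Col-0 by -2.04 (SE 0.23, adjusted p = 2.09e-05), with 114, 117 and 110 CPM in C. rubella flg22 libraries, against 95.4, 109 and 92.1 CPM in mock libraries. PRX52, named above from its list and not among the 3 smallest p-values here, rose in both C. rubella and Col-0. In Col-0 it rose by 7.10, where mock libraries had 2.88, 1.67 and 0.764 CPM, a difference of -4.55 (SE 0.70, adjusted p = 0.000436). Its effect differed from that in C. hirsuta by -4.72 (adjusted p = 0.000418) and from that in E. salsugineum by 0.29 (adjusted p = 0.881). Against C. hirsuta, the dirigent-like gene AT1G65870 (-4.60, SE 0.47, adjusted p = 8.15e-06) and the wall-associated kinase gene AT1G16260 (-4.97, SE 0.62, adjusted p = 8.77e-05) were lower. In C. hirsuta AT1G16260 had 3.63, 1.63 and 1.19 CPM in flg22 libraries, against 0.0931, 0.202 and 0 CPM in mock libraries. In C. rubella it had 22.6, 13.0 and 15.5 CPM in flg22 libraries, against 28.8, 22.0 and 21.7 CPM in mock libraries. Its effect in C. hirsuta (4.47) and the difference thus rest on very low mock levels, and no bound was computed for them. Against E. salsugineum, the invertase/pectin methylesterase family gene AT2G47550 (-3.04, SE 0.36, adjusted p = 6.34e-05) and the hydrolase gene AT5G41900 (-3.83, SE 0.49, adjusted p = 0.00013) were lower.

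Some SA genes also differed in effect from Col-0 or C. hirsuta, and 0 from E. salsugineum. Of 12 SA genes in the fit, 0 rose in C. rubella, 0 in E. salsugineum, 6 in Col-0 and 5 in C. hirsuta. Among all 3812 orthologs, 6.14% rose in C. rubella, 6.9% in E. salsugineum, 15.2% in Col-0 and 11.9% in C. hirsuta. At shares of 6.14% and 6.9%, a count of 0 among 12 genes does not set the SA list apart. NIMIN1 was called lower after flg22 in C. rubella in this fit (-2.75, adjusted p = 0.00992), with 24.0 CPM in mock replicate 1. CBP60G, SARD1, NIMIN1 and NIMIN2 had a lower effect in C. rubella than in Col-0, and NIMIN1 and SARD1 than in C. hirsuta. CBP60G differed from Col-0 by -2.51 (SE 0.39, adjusted p = 0.000477), where Col-0 had 64.0, 40.6 and 66.5 CPM in flg22 libraries, against 7.49, 5.86 and 5.98 CPM in mock libraries. Without the C. rubella mock library of replicate 1, which had the highest SARD1, NIMIN1 and NIMIN2 levels, CBP60G and NIMIN1 remained lower than in Col-0 and NIMIN1 and SARD1 lower than in C. hirsuta. The same shares apply to the 18 indole glucosinolate genes. Of these, 9 rose in C. rubella in this fit, 13 in Col-0, 4 in E. salsugineum and 2 in C. hirsuta. None differed in effect between C. rubella and another species.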

How the data were processed

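The authors mapped strand-specific single reads of polyA-enriched RNA with TopHat2, after CASAVA 1.8.2 and cutadapt 1.5 per the labels, to the C. rubella version 1.0 genome. They deposited raw read counts per gene from HTSeq 0.6.0, with default settings that leave out reads mapped to several places, so close paralogs are undercounted. Summary lines were left out. They held 15.9 to 24.1% of all counts, in which a read with several alignments may enter more than once. Counts were tested with edgeR 4.0.16 in R 4.3.3 (quasi-likelihood F-test, TMM, Benjamini-Hochberg adjustment) over 18 C. rubella libraries with the replicate as a block, after a filter that kept genes averaging 10 or more counts. SE was taken as |log2 fold change| over √F. Species contrasts used 24 libraries at 9 h without a block. Level differences between times added 0.1 CPM before log2.

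Pairing comes from the side-by-side experiments of the study's methods. At 9 h the deviations of same-numbered libraries correlated at 0.0639, 0.153 and 0.235, and at 1 h and 24 h at 0.116 to 0.436. No libraries held identical values.

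Orthologs came from the study's supplemental lists, of which a part was at hand (4544 pairs). Names follow fixed rules: the 12 named orthologs that rose most and up to 12 that fell most with a mean of 10 counts in both groups and 3 pairs in 1 direction, 2 each without ortholog, up to 4 members per list by adjusted p-value, the genes with primers in the study with 2 regulators, and the 3 smallest p-values per contrast. The members and gene lists were chosen with earlier results of these data known. Scripts were tested on simulated data. DESeq2 1.42.0, limma-voom (limma 3.58.1), other filters, designs and left-out replicates were alternatives.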

Additional observations from a re-analysis of the deposited data

Results flagged for a closer look

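Several results differed between times or species in a test of the difference itself. The flg22 effect in C. rubella at 9 h was higher than at 1 h for 794 genes and lower for 2024, and higher than at 24 h for 3 genes and lower for 21. It was higher than in A. thaliana Col-0 for 37 orthologs and lower for 111, higher than in C. hirsuta for 20 and lower for 59, and higher than in E. salsugineum for 7 and lower for 8.

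Among single genes, the 9 h effect minus the 1 h effect was -6.13 for AT3G52520, -4.59 for AT1G03220 and -3.59 for AT3G53810. The 9 h effect minus the 24 h effect was -1.98 for AT1G03220, -2.08 for AT1G08940 and -2.74 for BCB. The C. rubella effect minus the Col-0 effect was 4.104 for RHA1B, -3.77 for AT5G42830 and -2.04 for AT1G66880. The C. rubella effect minus the C. hirsuta effect was 3.83 for AT4G16563, -4.97 for AT1G16260 and -4.60 for AT1G65870, and minus the E. salsugineum effect it was 2.60 for AT2G34810, -3.04 for AT2G47550 and -3.83 for AT5G41900. All values are on the log2 scale, and that of AT1G16260 rests on very low mock levels in C. hirsuta. The causes were not tested.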

How the results depend on the processing

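The genes called at 9 h kept their sign under every alternative in which they were tested. They were chosen on these same libraries and had the same direction in all 3 pairs, so this is no independent evidence. The cause of the changes in counts was not tested. Genes not called could turn, and without mock replicate 1 NIMIN2 (-1.47) was at 0.31 and SWEET2 (-0.32) at 0.26. For genes risen at 9 h (325), DESeq2 gave 508, an adjusted p-value below 0.05 with no fold limit gave 887, leaving out a replicate gave 1 to 292 (123, 20 and 174 without the 9 h pair of replicate 1, 2 or 3), and leaving out mock replicate 1 at 9 h, an alternative chosen after the data were seen, gave 189. For genes fallen at 9 h (124), the counts were 290 with DESeq2, 31 in the 6 libraries at 9 h alone, 638 at the wider threshold, 0 to 37 with a replicate left out, 28, 14 and 116 without the 9 h pair of replicate 1, 2 or 3, and 51 without mock replicate 1. Without the replicate block 242 rose and 81 fell. For 9 h against 1 h, leaving out a replicate gave 151 to 496 higher and 1279 to 1584 lower, the wider threshold 2143 and 3054, and leaving out mock replicate 1 gave 683 and 1920. For 9 h against 24 h, higher (3) became 0 without the replicate block, 10 with DESeq2, 9 at the wider threshold, 0 to 1 with a replicate left out and 1 without mock replicate 1. Lower (21) became 10 without the replicate block, 325 with DESeq2, 44 with no filter on low counts, 34 with a mean of at least 50 counts, 199 at the wider threshold, 0 to 8 with a replicate left out, 8, 0 and 14 without the 9 h pair of replicate 1, 2 or 3, and 23 without mock replicate 1.

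For species, the replicate block gave 68 and 191 (Col-0), 63 and 126 (C. hirsuta) and 34 and 33 (E. salsugineum), higher and lower. Leaving out a C. rubella replicate gave 20 to 25 and 54 to 107 for Col-0, 12 to 19 and 29 to 71 for C. hirsuta, and 5 to 7 lower for E. salsugineum. Without mock replicate 1, 74 were lower than Col-0 and 5 lower than E. salsugineum. Settings that left an arm with 2 libraries rest on the spread pooled over the other groups.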
